A study of Mus musculus with 20 samples.

Results

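Brain RNA from J27b mice was compared with brain RNA from Wild type mice. The libraries were chosen by their titles: the 3 of the J27b line and the 3 titled c57, whose genotype is Wild type, together 6 of the 20 libraries of the series. All genes that passed a filter on low counts over the 20 libraries, 16063 in number, were tested. Both groups carry the strain label C57/Bl6J and the tissue label brain, and both belong to a series on single-isoform knockout mice fed a normal diet. The other 14 libraries come from the lines J1 lf/lf, J2 lf/lf, J17a, J17b and J27a, and are used below only as a reference for the spread. The labels do not spell out the code J27b. The series title names a 7b form of JNK, and J27b is taken here to be a line altered at Mapk9, the gene of JNK2. Whether the form in the code is the one kept or the one removed is not stated, and the sources used here do not give age, sex, the brain parts taken or the number of founders. Replicates are not said to be separate animals, so p-values measure the spread between these libraries only.

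JNK kinases are the stress-activated branch of the MAP kinases. Upstream kinases (MAP3K, then MKK4 and MKK7) phosphorylate them, scaffold proteins hold the cascade together, dual-specificity phosphatases switch it off, and c-Jun and related factors are their best known targets. JNK1 and JNK2 are made in most tissues, whereas JNK3, from Mapk10, is largely neuronal. In brain the family is known for its part in cytoskeleton upkeep, neuronal death and plasticity, and in metabolism for its action on insulin signalling and on the thyroid axis. JNK1 and JNK2 transcripts are spliced with either one or the other of neighbouring, alternative exons in the kinase domain, which gives the forms that the codes of the series name.

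The exon pair of Mapk9 is shown because it is the stretch in which transcripts of the gene differ in the way the line code names. In the GENCODE M21 annotation of build mm10, Mapk9 lies on the plus strand at chr11:49846751-49886421. Its alternative seventh exons, both coding, lie at chr11:49873836-49873907 and chr11:49874264-49874335, with 356 bases between them. Of 7 coding transcripts, 4 hold the upstream exon, 3 the downstream exon and 0 both. Capitals mark the bases that differ when both are aligned end to end without gaps.
Upstream exon: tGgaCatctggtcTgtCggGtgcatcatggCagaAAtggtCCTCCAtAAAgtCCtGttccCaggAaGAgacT
Downstream exon: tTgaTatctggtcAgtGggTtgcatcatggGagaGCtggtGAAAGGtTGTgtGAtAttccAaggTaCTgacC
Each is 72 bases long, and 47 of the bases (65.3%) are the same in both. The sources used here do not say which of them bears the letter a or b. The deposited counts are sums per gene, in which both exons go into the same Mapk9 value, so exon use was not analysed here.

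Library totals of the 6 libraries ran from 24736263 to 33828755 estimated counts. Wild type replicate 3 stood apart from the other Wild type libraries: the chi-square per gene was 58.7 and 70.3 between it and replicates 1 and 2, 13.7 between those, and 5.77 to 8.18 among the J27b libraries. Wild type replicate 2 held pituitary transcripts, with 1008 CPM (the count scaled to the library total) of Gh, growth hormone, against 0.34 and 5.27 in replicates 1 and 3. In J27b, Gh stood at 0.03, 0.23 and 0.52 CPM. Slc17a7, the vesicular glutamate transporter of cortical neurons, stood at 1099, 1048 and 577.9 CPM in Wild type and at 901.9 to 950.7 CPM in J27b, so Wild type replicate 3 was low for it. Genes that define neurons and glia were present in all 6 libraries, with Gad1 at 453.1 to 631.1 CPM and Cnp at 314.5 to 395.0 CPM. Rn45s, the ribosomal RNA precursor, took 0.37 to 0.67% of the Wild type totals and 1.81 to 2.04% of the J27b totals. All Wild type libraries carry title numbers up to 10 and all J27b libraries numbers above 10, so the title number and the genotype cannot be told apart in this comparison. Across the 20 libraries Rn45s took at most 0.68% where the number was up to 10 and at least 1.73% where it was above. No label sets a cut at 10. It falls within J17a, where the Rn45s share steps from 0.66% in replicate 1 to 1.83% in replicate 2. The separation by this cut is therefore a description of these values and no test. What the title number stands for is not stated. A term for it in the fit can be had only from J17a, by replicate 1 against replicates 2 and 3. Those libraries also differ in brain region genes, with cerebellar list medians of 0.60 against -0.30 and -0.47, so values from that fit rest on 1 library and are given as a description.

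In the main edgeR fit, J27b brain could not be separated from Wild type brain at any single gene. Of 16063 genes, 0 (0%) had an adjusted p under 0.05 in edgeR's quasi-likelihood test, and the smallest adjusted p was 0.493. At an unadjusted p under 0.05, 537 genes (3.34%) were higher and 577 (3.59%) lower in J27b, 6.94% in all, where 5% would have p below that value if no gene differed. Called by DESeq2's Wald test on the same 20 libraries, 4 genes passed: Haglr, Pigz, Rn45s and Tmem181b-ps. Without Wild type replicate 1, edgeR called 2 others, Srp54b and 1700047I17Rik2. The median log2 fold change of all tested genes was -0.0015, and 49.6% of them were positive. All 3 J27b libraries lay above all 3 Wild type libraries for 965 genes (6.01%) and below them for 948 (5.9%). Every J27b library lay above all 17 others for 17 genes (0.106%) and below all of them for another 17 (0.106%).

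**Figure D1:**
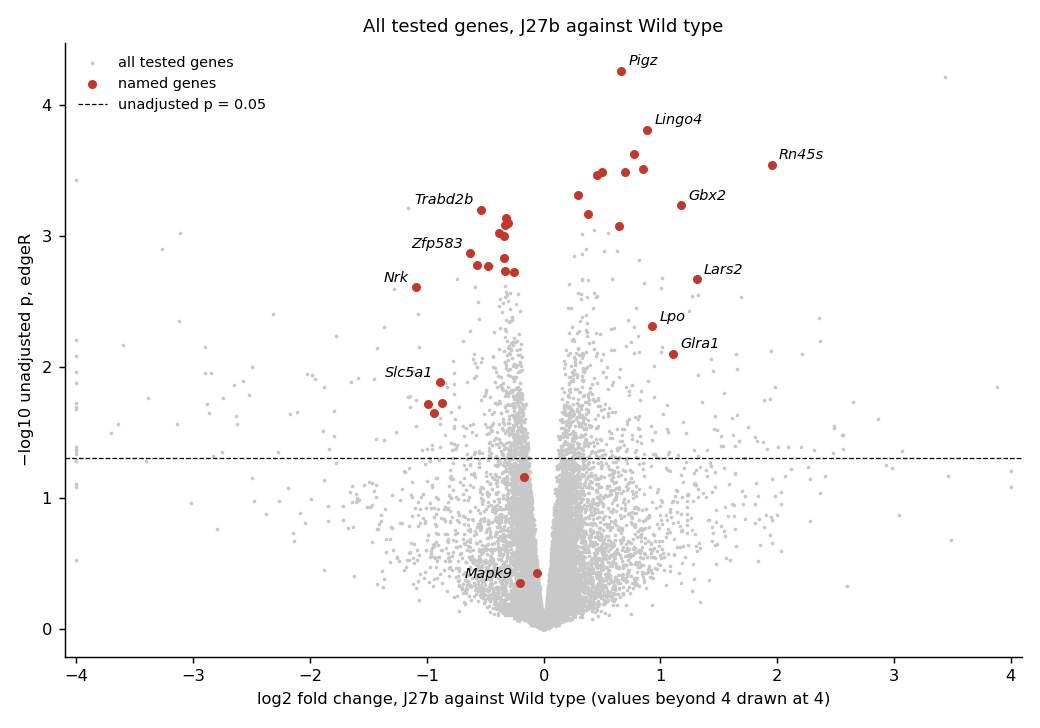
Each point is 1 of the 16063 tested genes, with the log2 fold change of J27b against Wild type on the horizontal axis and the -log10 of the unadjusted edgeR p on the vertical axis. Red points are the genes chosen by rank for the text and the JNK genes, and the dashed line is an unadjusted p of 0.05. The cloud is symmetric about 0, Pigz has the smallest p among the named genes, and Mapk9 lies low in the middle.

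The 3 JNK genes came first because the line code names one of them. Mapk9, which encodes JNK2, stood at 302.5, 293.5 and 360.4 CPM in Wild type and at 274.0, 277.0 and 278.1 CPM in J27b. The J27b libraries lay below all Wild type libraries and close to each other, at 86.7% of the Wild type mean. The log2 fold change was -0.21 (SE 0.26, 95% interval -0.77 to 0.36, edgeR adjusted p 0.88). Without Wild type replicate 3 it was -0.11. The fit takes its spread from all 7 groups, and single libraries of the other lines ranged from 58.1 to 325 CPM. The low values were those of J2 lf/lf, at 177.1, 171.3 and 58.1 CPM. Libraries of J1 lf/lf, J17a, J17b and J27a stood at 292.1 CPM or more, above all J27b libraries. A gene-level difference in Mapk9 was not detected in this fit, within an interval that is wide.

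Mapk8, the gene of JNK1 (chr14:33377898-33447158), stood at 117.8, 108.9 and 140.4 CPM in Wild type and at 111.0, 103.9 and 111.0 CPM in J27b. The groups overlap, and the log2 fold change was -0.17 (SE 0.09, 95% interval -0.36 to 0.01, edgeR adjusted p 0.731). Mapk10, the gene of the neuronal JNK3 (chr5:102907948-103211334), stood at 392.9, 385.0 and 382.7 CPM in Wild type and at 384.4, 368.6 and 360.4 CPM in J27b. Its log2 fold change was -0.06 (SE 0.07, 95% interval -0.20 to 0.08, edgeR adjusted p 0.854). These intervals hold 0 and limit a difference of Mapk10 more tightly than one of Mapk9.

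On the TPM scale, which divides by transcript length and so allows levels to be set side by side between genes, Mapk9 was the most abundant JNK gene in both groups. Its level was 169 ± 27.6 TPM (SD, n = 3) in Wild type and 143 ± 2.07 TPM (SD, n = 3) in J27b. Mapk10 stood at 129 ± 5.48 and 121 ± 3.11 TPM, and Mapk8 at 52.0 ± 9.49 and 45.0 ± 1.74 TPM, in the same order of groups. Of the summed TPM of the JNK genes, Mapk9 made up 48.0% in Wild type and 46.2% in J27b, and Mapk10 37.2% and 39.3%. The order of the JNK genes was therefore the same in both groups.

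**Figure D2:**
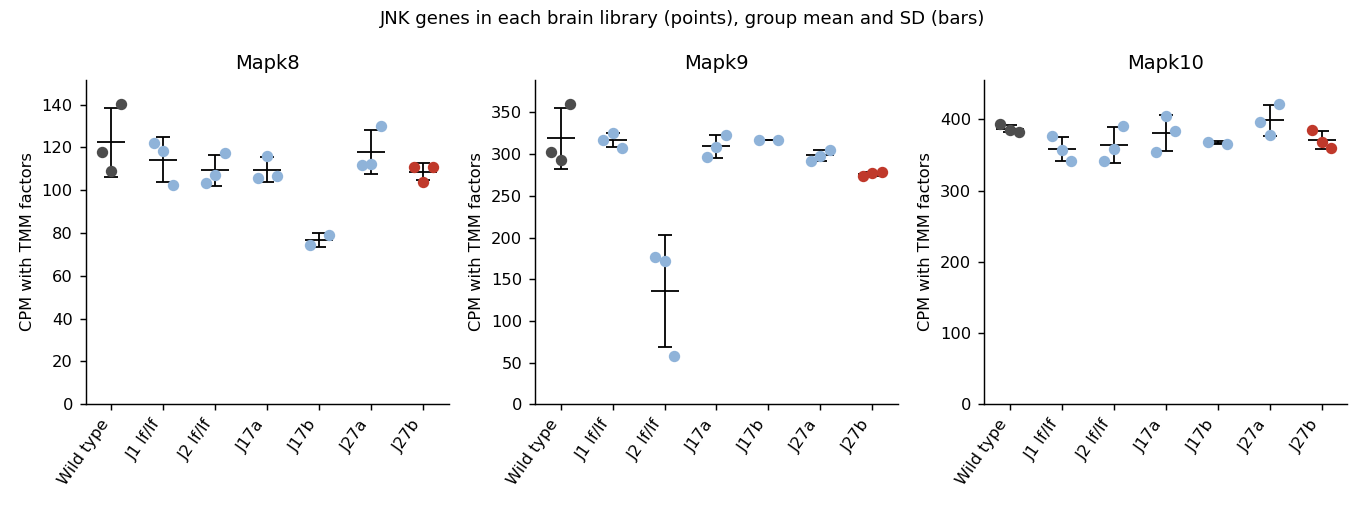
Each panel plots 1 JNK gene, with CPM on the vertical axis from 0 and the 7 groups on the horizontal axis. Points are libraries, and bars give the mean and SD of a group. The J27b points of Mapk9 lie between 274.0 and 278.1 CPM, just below the Wild type points. The J2 lf/lf points lie lower, from 58.1 to 177.1 CPM.

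Among genes higher in J27b, each gene named by rank has 3 J27b libraries above the 3 Wild type libraries, because that was part of the rule by which they were named. None passed the test in the main edgeR fit. Pigz, which adds a mannose to GPI anchors, stood at 9.79, 10.1 and 6.90 CPM in Wild type and at 12.04, 15.5 and 15.1 CPM in J27b. Its log2 fold change of 0.66 (SE 0.13) had the smallest adjusted p of the fit, 0.493, shared with Haglr, and libraries of the other lines ran from 9.33 to 13.8 CPM. Lingo4, a leucine-rich repeat membrane protein, stood at 5.73, 7.06 and 7.18 CPM in Wild type and at 13.1, 11.2 and 12.8 CPM in J27b. That is a log2 fold change of 0.89 (SE 0.19, edgeR adjusted p 0.598), with the other lines between 5.65 and 12.6 CPM. For both genes the highest libraries of other lines reached into the J27b range.

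Gbx2, a homeobox factor of the isthmus and of the developing thalamus (chr1:89927956-89931179), stood at 4.74, 3.01 and 3.69 CPM in Wild type and at 7.99, 8.88 and 8.94 CPM in J27b. The J27b mean was 225% of the Wild type mean, a log2 fold change of 1.17 (SE 0.29, edgeR adjusted p 0.647). Every J27b library lay above all 17 others, the nearest of which was J2 lf/lf replicate 2 at 7.43 CPM, while the median of the other lines was 2.81 CPM.

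Vamp1, a synaptobrevin of synaptic vesicles in fast-firing and motor circuits, stood at 282.6, 296.4 and 294.3 CPM in Wild type and at 415.4, 361.2 and 459.9 CPM in J27b (log2 fold change 0.50, SE 0.12, edgeR adjusted p 0.598). Igfbp2, a secreted protein that binds IGFs, stood at 41.2, 37.4 and 28.7 CPM against 71.6, 46.6 and 49.7 CPM (log2 fold change 0.64, SE 0.16). Kcnh2, the ERG potassium channel, stood at 71.4, 69.6 and 58.8 CPM against 89.0, 82.2 and 89.0 CPM. In the fit with the title number the log2 fold change of Vamp1 was 0.0022, and that of Lingo4 0.08. Glra1, a glycine receptor subunit found mainly in brainstem and spinal cord, stood at 10.7, 7.68 and 18.1 CPM against 27.4, 20.5 and 30.1 CPM (log2 fold change 1.11). Lpo, lactoperoxidase, stood at 1.30, 1.01 and 1.82 CPM against 2.47, 2.91 and 2.42 CPM (log2 fold change 0.93).

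Prob1, a proline-rich protein, stood at 5.29, 7.66 and 4.96 CPM in Wild type and at 9.60, 9.91 and 9.70 CPM in J27b. It was above all 17 other libraries, which reached 9.43 CPM. Pcdhb8, a clustered protocadherin of neuronal surfaces, had a log2 fold change of 0.85 from at most 2.39 CPM in Wild type to at least 3.45 CPM in J27b. The other lines ran from 2.72 to 4.63 CPM, so they too lay above all Wild type libraries. Against their mean the log2 difference was 0.19. Haghl had a log2 fold change of 0.46 and Praf2 of 0.30. Pcdhb8 belongs to a family of near-identical neighbours, and its reads may be shared among them by the counting.

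Rn45s and Lars2 had the largest fold among the genes of this direction named by rank. Rn45s stood at 4487, 6658 and 3582 CPM in Wild type and at 18239, 20550.1 and 18173 CPM in J27b, a log2 fold change of 1.95 (SE 0.40, edgeR adjusted p 0.598). Lars2, the mitochondrial leucyl-tRNA synthetase, stood at 148.8, 184.5 and 109.8 CPM against 325.1, 389.3 and 384.7 CPM, a log2 fold change of 1.31 (SE 0.35). Both genes spread far more widely over the other lines, from 3066 to 54698 CPM for Rn45s and from 81.3 to 1064 CPM for Lars2. Against J27a, Rn45s had a log2 difference of -0.42, and once the title number was a term of the fit the values against Wild type were 0.51 for Rn45s and 0.30 for Lars2. The cut of that term falls where the Rn45s share steps, so these values are a description and no independent test.

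Tmem181b-ps, a pseudogene, stood at 45.1, 40.2 and 40.7 CPM in Wild type and at 76.1, 65.8 and 73.2 CPM in J27b, a log2 fold change of 0.77 (SE 0.17, edgeR adjusted p 0.598). Its coding relative Tmem181a stood at 82.1, 77.7 and 76.4 CPM against 77.1, 71.7 and 67.4 CPM, a log2 fold change of -0.13. The sources used here do not say how the counting split reads between the copies, so the pseudogene's value is uncertain. Srp54b, a copy of the signal recognition particle gene, stood at 183.4, 100.9 and 129.2 CPM in Wild type and at 185.9, 186.6 and 181.1 CPM in J27b. Its neighbour 1700047I17Rik2 stood at 56.3, 28.8 and 33.4 CPM against 52.8, 49.9 and 51.7 CPM. For both genes Wild type replicate 1 lay with J27b while Wild type replicates 2 and 3 lay lower, which is why they passed only without replicate 1. Haglr, a long noncoding RNA of the Hoxd cluster, stood at 0, 0.15 and 0.12 CPM in Wild type and at 0.76, 0.84 and 1.49 CPM in J27b. In the other lines it ran from 0.20 to 0.97 CPM, also above all Wild type libraries.

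Among genes lower in J27b, most of the differences with the smallest p were narrow. Trabd2b, a metalloprotease that acts on Wnt proteins, stood at 11.8, 12.5 and 12.3 CPM in Wild type and at 8.58, 8.24 and 8.41 CPM in J27b. Both groups were tight, and the log2 fold change was -0.54 (SE 0.13, edgeR adjusted p 0.647), but other lines ran from 7.84 to 12.8 CPM and so covered both. Mtus2, a microtubule-binding protein, stood at 72.5, 75.6 and 86.8 CPM against 64.2, 60.3 and 63.6 CPM (log2 fold change -0.32). Ano3, an anoctamin of neurons, stood at 160.3, 157.6 and 198.5 CPM against 135.3, 142.5 and 129.5 CPM (log2 fold change -0.34). Zfp583, a zinc finger protein, stood at 4.16, 3.55 and 5.63 CPM against 2.73, 2.91 and 2.94 CPM (log2 fold change -0.63). Mtus2, Ano3 and Zfp583 were lower in each J27b library than in all 17 others.

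Next came Cnksr2, a scaffold of synaptic Ras signalling, at 211.8, 193.3 and 221.9 CPM in Wild type and at 171.4, 176.1 and 159.5 CPM in J27b (log2 fold change -0.31). Cadps2, which primes dense-core vesicles, stood at 150.4, 149.1 and 171.2 CPM against 126.4, 121.1 and 126.9 CPM (log2 fold change -0.33). Trhde, the enzyme that degrades thyrotropin-releasing hormone, stood at 39.8, 46.1 and 44.3 CPM against 35.6, 37.1 and 30.2 CPM (log2 fold change -0.34). In the fit with the title number the log2 fold change of Cadps2 was -0.0045, and that of Trabd2b -0.05. Ly86, a partner of the Toll-like receptor relative RP105, stood at 8.495, 6.56 and 8.52 CPM against 5.49, 6.16 and 4.15 CPM (log2 fold change -0.57). Kdm3a, a histone demethylase (-0.33), Hjurp, a centromere chaperone (-0.38), Zfp189 (-0.47) and Lyst, a protein of lysosome trafficking (-0.25), completed the list by p.

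The named genes of this direction with the largest fold depended in part on Wild type replicate 3. Nrk, a germinal centre kinase of the JNK pathway, stood at 5.15, 5.50 and 11.3 CPM in Wild type and at 2.83, 3.62 and 3.82 CPM in J27b. Its log2 fold change was -1.09, and -0.64 without Wild type replicate 3. Fgf7, a growth factor of mesenchymal cells, stood at 2.66, 2.45 and 6.58 CPM against 1.97, 2.28 and 1.57 CPM, with -0.99 and, without that library, -0.39. Gabra6, the GABA-A subunit of cerebellar granule cells, stood at 81.5, 82.1 and 140.9 CPM against 48.7, 54.6 and 55.8 CPM, with -0.93 (SE 0.36, edgeR adjusted p 0.713) and -0.63. In each of them replicate 3 was the highest Wild type library. Ltbp2, a matrix protein of elastic fibres, stood at 6.31, 8.66 and 8.29 CPM against 3.42, 4.55 and 4.79 CPM (-0.87), and Slc5a1, a sodium-glucose cotransporter, had a log2 fold change of -0.88. Ltbp2 and Gabra6 turned positive, at 0.27 and 0.11, in the fit with the title number.

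**Figure D3:**
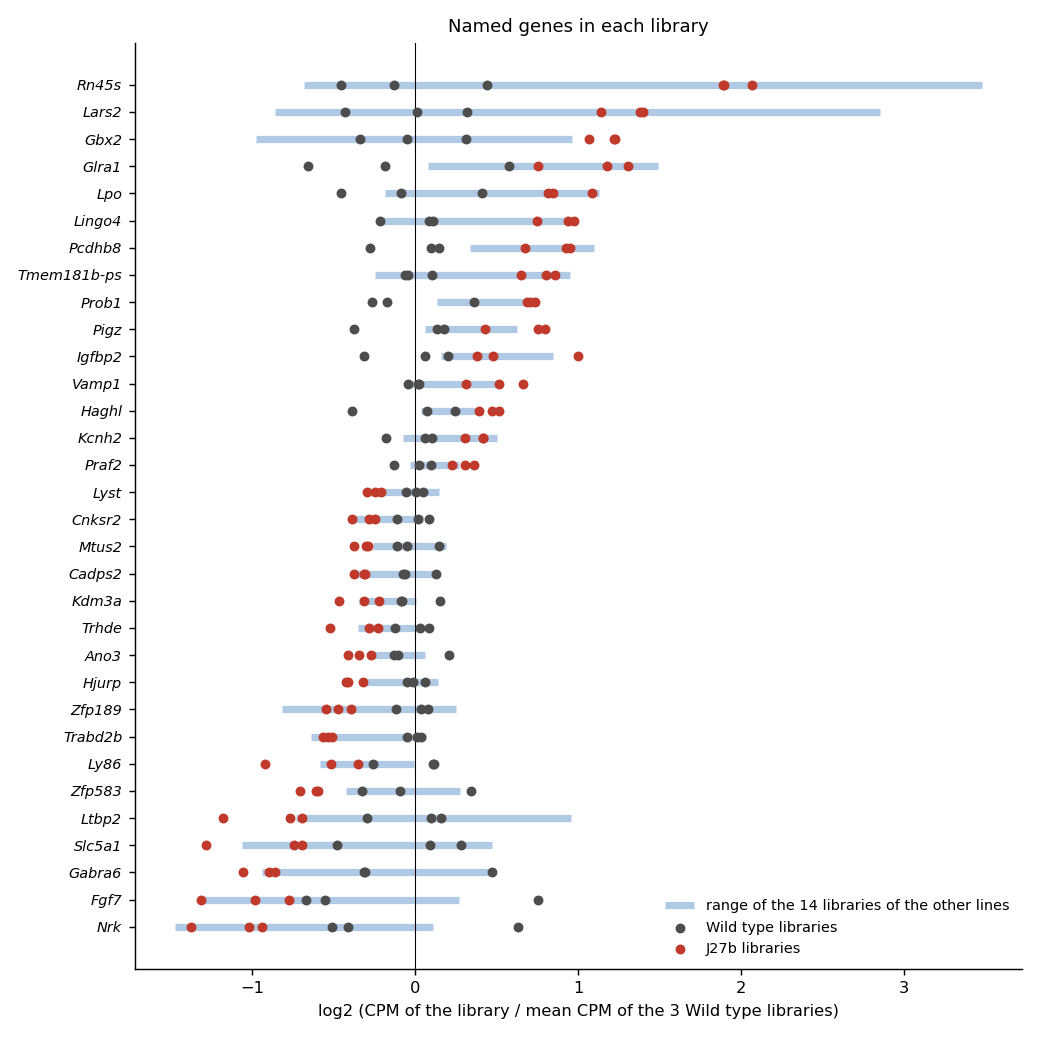
The horizontal axis is the log2 of a library's CPM over the Wild type mean CPM, for each of the 32 genes named by rank. Grey points are Wild type libraries, red points J27b libraries, and the bar behind each gene is the range over the 14 libraries of the other lines. Red and grey points do not overlap by the rule of choice, and all 3 red points lie beyond the bar for Gbx2, Prob1, Mtus2, Ano3 and Zfp583.

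Some genes that set J27b apart from all 17 other libraries lay outside the rule and were picked after their values were seen. Olig1, a factor of the oligodendrocyte lineage, stood at 148.1, 173.2 and 127.9 CPM in Wild type and at 182.6, 194.3 and 183.8 CPM in J27b (log2 fold change 0.32), with at most 182.3 CPM in the other lines. Sox2, a factor of neural stem cells and glia, stood at 30.7, 30.0 and 19.7 CPM against 34.3, 34.03 and 35.6 CPM (0.37). Ndn, the imprinted gene of necdin, stood at 181.5, 190.3 and 195.4 CPM against 220.2, 231.1 and 229.8 CPM. P2ry12, the microglial ADP receptor, was below all 17 others, at 21.1, 22.0 and 21.3 CPM in J27b against 23.8, 22.6 and 33.2 CPM in Wild type (-0.30). The margins are narrow, under 1 CPM for Olig1.

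In the JNK pathway itself, lists of upstream kinases, scaffolds, phosphatases and targets gave few genes. Of 17 upstream kinases, 0 were higher and 1 lower at an unadjusted p under 0.05, beside 3.34% and 3.59% of all tested genes, and their median log2 fold change was -0.01. The lower gene was Map3k13, the kinase LZK, at 36.2, 34.9 and 40.7 CPM in Wild type and 32.3, 33.6 and 29.5 CPM in J27b. The 6 scaffold genes had a median of 0.07 and 0 with such a p. Of 10 phosphatases, 0 were higher and 1 lower. That gene was Dusp5, a nuclear phosphatase of ERK that is induced by activity, at 12.2, 14.99 and 11.7 CPM against 7.20, 8.57 and 6.93 CPM. Its log2 fold change was -0.78 (SE 0.27, edgeR adjusted p 0.703), and J27b replicates 1 and 3 lay below all libraries of the other lines, which ran from 8.27 to 20.3 CPM. The shares of these lists are near the background.

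Among the targets, 11 tested AP-1 and ATF genes had a median log2 fold change of 0.00, and 0 in either direction had an unadjusted p under 0.05. Jun itself had 0.01, Jund 0.28, Fos -0.13 and Atf2 0.00. Of 12 immediate early genes, the transcripts that follow neuronal activity, 10 were negative, with a median of -0.13 and values of -0.53 for Arc, -0.61 for Egr2 and -0.40 for Nr4a1. Again 0 had such a p in either direction. Per library the list's median was 0.13, 0.24 and -0.38 in Wild type and -0.25, -0.11 and -0.03 in J27b, so Wild type replicate 3 lay lowest. Of 11 cytoskeleton proteins that JNK phosphorylates, 2 were higher at an unadjusted p under 0.05, beside 3.34% of all tested genes. Both were neurofilament subunits of large axons. Nefm stood at 374.4, 430.6 and 305.9 CPM in Wild type and at 469.7, 443.0 and 531.8 CPM in J27b (0.38), and Nefh had 0.28. Of 10 apoptosis genes under JNK, 1 was lower at such a p, beside 3.59% of all tested genes. That gene was Bcl2, which restrains mitochondrial death signals, at 34.4, 38.0 and 39.1 CPM against 31.8, 30.9 and 30.8 CPM (-0.25).

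Metabolic lists gave as few genes, beside 3.34% higher and 3.59% lower of all tested genes at an unadjusted p under 0.05. Of 16 genes of insulin and IGF signalling, 1 was higher at an unadjusted p under 0.05, Igfbp2, and the median log2 fold change was -0.05. Insr, the insulin receptor, had 0.05, Irs1 -0.10 and Irs2 0.04. Of 10 genes of thyroid hormone handling, 1 was lower: Dio2, which makes active thyroid hormone in glia, at 90.8, 98.0 and 88.9 CPM in Wild type and 74.3, 79.9 and 74.9 CPM in J27b (-0.28). Of 13 respiratory chain subunits 1 was higher, Sdhb (0.16), and their median was 0.01.

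Lists of ER chaperones, glucocorticoid response and clock genes leaned low by small amounts. All 12 ER chaperones and folding enzymes were negative, with a median log2 fold change of -0.13, where 49.6% of all tested genes were positive. At an unadjusted p under 0.05, 2 were lower, beside 3.59% of all tested genes. Manf, a secreted ER stress factor, stood at 41.8, 40.9 and 41.8 CPM in Wild type and at 37.1, 34.6 and 35.0 CPM in J27b (-0.22). Hspa5, the chaperone BiP, had -0.19, with the groups overlapping. Against J27a the list's median was 0.01. Cytosolic and mitochondrial heat shock genes did not lean, with 4 positive, 5 negative and a median of -0.01.

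Of 9 glucocorticoid response genes, 2 were lower at an unadjusted p under 0.05, beside 3.59% of all tested genes. These were Per1 (-0.31) and Sgk1, a kinase of ion transport (-0.42). Sgk1 stood at 146.0, 157.5 and 143.1 CPM in Wild type and at 117.7, 133.7 and 81.5 CPM in J27b. Of 12 clock genes, 10 were negative, the median was -0.11, and 4 were lower at an unadjusted p under 0.05, beside 3.59% of all tested genes, namely Nr1d1, Per1, Per2 and Clock. Against J27a the list's median was -0.15, and 4 were lower there too, 2.94% being the share of all genes. Per library the clock list's median was 0.09, -0.01 and -0.17 in Wild type and -0.10, -0.12 and -0.15 in J27b. Wild type replicate 3 thus lay below all J27b libraries. Nr1d1, the repressor REV-ERB alpha, stood at 156.7, 156.1 and 151.4 CPM against 138.2, 124.4 and 133.8 CPM (-0.23), without overlap. Per2 stood at 45.3, 42.8 and 37.1 CPM against 39.7, 33.0 and 33.7 CPM (-0.23), with overlap. The sources used here do not give the hour of collection.

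Lists for cell types and brain regions gave the largest list medians. In bulk tissue, fewer cells of a type and less RNA per cell cannot be told apart, and neither can a difference in the piece of brain that was taken. Of 10 cerebellar genes all were negative in J27b, with a median log2 fold change of -0.48, and for 8 of them the groups did not overlap, beside 5.9% of all tested genes. An unadjusted p under 0.05 was reached by 4, beside 3.59% lower of all tested genes: Gabra6, Neurod1, Cbln3 and Calb1. Neurod1, a granule cell factor, stood at 59.2, 68.7 and 98.0 CPM in Wild type and at 39.7, 45.6 and 47.2 CPM in J27b (-0.77). Cbln3, a secreted protein of granule cells, stood at 216.0, 274.8 and 315.3 CPM against 139.2, 169.6 and 172.1 CPM (-0.75). Calb1, calbindin of Purkinje cells, stood at 268.0, 279.8 and 422.2 CPM against 222.3, 239.7 and 240.7 CPM (-0.46). All 3 granule and Purkinje cell genes were highest in Wild type replicate 3.

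Without Wild type replicate 3, 0 of the cerebellar genes had an unadjusted p under 0.05, while the median was -0.45. Over 15 alternative settings the list's median log2 fold change ran from -0.55 to 0.32 and kept its sign in 14. The libraries of the other lines ranged widely in the list's median per library, from -0.47 to 0.66 relative to all 20 libraries. The J27b libraries, at -0.43, -0.29 and -0.26, lay within that range, as did the Wild type libraries at 0.02, 0.13 and 0.48. Outside the list, Fat2, a cadherin of granule cells, stood at 139.4, 158.0 and 186.4 CPM against 84.9, 97.7 and 102.8 CPM (-0.76), and was chosen after its value was seen.

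Hox genes, which are expressed in hindbrain and spinal cord and not in forebrain, stood higher in J27b. All 11 tested Hox genes were positive, with a median log2 fold change of 1.94, and 9 did not overlap, beside 6.01% of all tested genes. At an unadjusted p under 0.05, 5 were higher, beside 3.34% of all tested genes. Their levels were low: Hoxb3 stood at 1.16, 0.65 and 1.03 CPM in Wild type and at 3.45, 2.91 and 4.15 CPM in J27b (1.89). Hoxd3 stood at 0.44, 0.27 and 0.44 CPM against 2.30, 1.71 and 1.85 CPM (2.36), and Hoxc4 at 0.65, 0.30 and 0.48 CPM against 1.84, 1.74 and 2.13 CPM (2.01). The list summed to 2.48 to 8.90 CPM in Wild type and to 15.7 to 24.1 CPM in J27b. Glra1, named above, is also a gene of the hindbrain and spinal cord. Of 4 cholinergic genes, 2 were positive and 2 negative, with a median of 0.08, and 1 was higher at such a p: Slc18a3, the vesicular transporter of acetylcholine, at 3.75, 5.32 and 4.08 CPM against 6.38, 6.30 and 10.03 CPM (0.78).

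Other lines reached the same Hox levels, with medians per library from -0.801 to 1.403 relative to all 20 libraries. Without Wild type replicate 3 the number of Hox genes with such a p was 2. Their median log2 fold change ran from -0.84 to 2.49 over 15 alternative settings and kept its sign in 14. All 3 J27b libraries thus combined low cerebellar with high Hox values, each within the range of the other lines.

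Thalamic genes scattered widely in Wild type. Of 8 genes, 7 were positive, with a median log2 fold change of 0.24, and 0 had an unadjusted p under 0.05 in either direction. Tcf7l2, a factor of thalamic neurons, stood at 38.9, 24.6 and 56.1 CPM in Wild type and at 63.7, 52.3 and 54.2 CPM in J27b (0.51). Slc17a6, the vesicular glutamate transporter of subcortical neurons, stood at 125.9, 79.5 and 225.1 CPM against 171.2, 162.4 and 175.2 CPM. The Wild type libraries spanned the J27b range for Slc17a6, whereas J27b replicate 1 lay above them for Tcf7l2.

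Of 10 oligodendrocyte genes, 9 were positive and 1 negative, with a median log2 fold change of 0.15. At an unadjusted p under 0.05, 3 were higher, beside 3.34% of all tested genes, and 0 passed after adjustment. Per library the list's median was -0.26, -0.02 and -0.07 in Wild type and 0.09, 0.00 and 0.05 in J27b. The libraries of the other lines ran from -0.37 to 0.18 and so covered both groups. Against the mean of the other 5 lines the list's median log2 difference was 0.04. Mag, a myelin adhesion protein, stood at 151.9, 182.0 and 146.9 CPM in Wild type and at 201.6, 195.8 and 207.2 CPM in J27b (0.33). Mobp stood at 252.0, 307.1 and 254.9 CPM against 307.8, 339.8 and 320.9 CPM (0.25), and Cnp at 327.9, 378.4 and 314.5 CPM against 382.3, 387.5 and 395.0 CPM (0.19). These genes did not overlap, though Wild type replicate 2 came within 1 CPM of J27b for Mobp. Without Wild type replicate 3 the number with such a p was 1. The list's median log2 fold change ran from -0.19 to 0.21 over 15 alternative settings and kept its sign in 14. Outside the list, Myrf, the factor that drives myelin genes, stood at 76.6, 93.8 and 74.6 CPM against 101.1, 101.0 and 104.8 CPM (0.32), and was chosen after its values were seen. Of 5 precursor genes, 3 were positive and 2 negative, with a median of 0.03. The 2 higher at such a p were Olig1 and Olig2, each with 0.32.

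In lists of further cell types, 0 genes passed after adjustment, and the counts here are at an unadjusted p under 0.05, beside 3.34% higher and 3.59% lower of all tested genes. Of 8 astrocyte genes 1 was lower, Slc1a3, a glutamate transporter, at 670.5, 728.8 and 807.5 CPM in Wild type and 573.0, 642.8 and 596.7 CPM in J27b (-0.28). Of 10 microglial genes 1 was lower, P2ry12, and the list's median was 0.06. Of 8 GABAergic interneuron genes 2 were lower, Lhx6 (-0.35) and Gad1, the GABA-making enzyme, at 499.1, 578.6 and 631.1 CPM against 483.6, 495.9 and 453.1 CPM (-0.25). Per library this list's median was -0.01, 0.17 and -0.17 in Wild type and -0.08, -0.06 and -0.16 in J27b, so the groups overlapped. All 10 striatal genes were negative with a median of -0.21, and 0 had such a p in either direction. The J27b libraries disagreed: replicate 2 had a list median of 0.20, above all Wild type libraries, and replicates 1 and 3 had -0.28 and -0.33.

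Of 8 olfactory bulb genes 1 was lower, Reln, which encodes reelin, at 163.2, 163.7 and 202.7 CPM in Wild type and 135.2, 146.4 and 148.4 CPM in J27b (-0.30). Of 10 tested hypothalamic neuropeptide genes 1 was lower, Npy, at 30.8, 29.9 and 27.4 CPM against 24.8, 25.4 and 21.4 CPM (-0.30). Of 6 ependymal genes 2 were higher, and Foxj1, the factor of ciliated cells, stood at 11.1, 9.61 and 6.70 CPM against 12.5, 12.5 and 14.1 CPM (0.51). Without Wild type replicate 3, 0 ependymal genes had such a p. Choroid plexus varied too much to compare: Ttr, transthyretin, stood at 625.7, 291.6 and 828.2 CPM against 1308, 403.6 and 617.1 CPM.

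All 8 pituitary genes were negative, with a median log2 fold change of -7.29. At an unadjusted edgeR p under 0.05, 5 were lower, beside 3.59% of all tested genes. For 0 of the 8, however, were the groups apart, and the high level was that of Wild type replicate 2 alone. Prl, prolactin, stood at 188 CPM in that library, against 0.07 and 0.40 CPM in Wild type replicates 1 and 3. Ribosomal and nuclear transcripts had list medians per library of -0.33, -0.47 and -0.48 in Wild type and 0.01, 0.48 and 0.52 in J27b. All 5 were positive, with a median log2 fold change of 0.83. At an unadjusted p under 0.05, 4 were higher, beside 3.34% of all tested genes, and 4 did not overlap, beside 6.01%. Title number and genotype cannot be told apart here, and the cause was not tested. Malat1, a nuclear noncoding RNA, stood at 919.9, 642.4 and 926.1 CPM in Wild type and at 1159, 1606 and 1653 CPM in J27b (0.83). Against J27a, whose title numbers are also above 10, the list's median was -0.33.

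**Figure D4:**
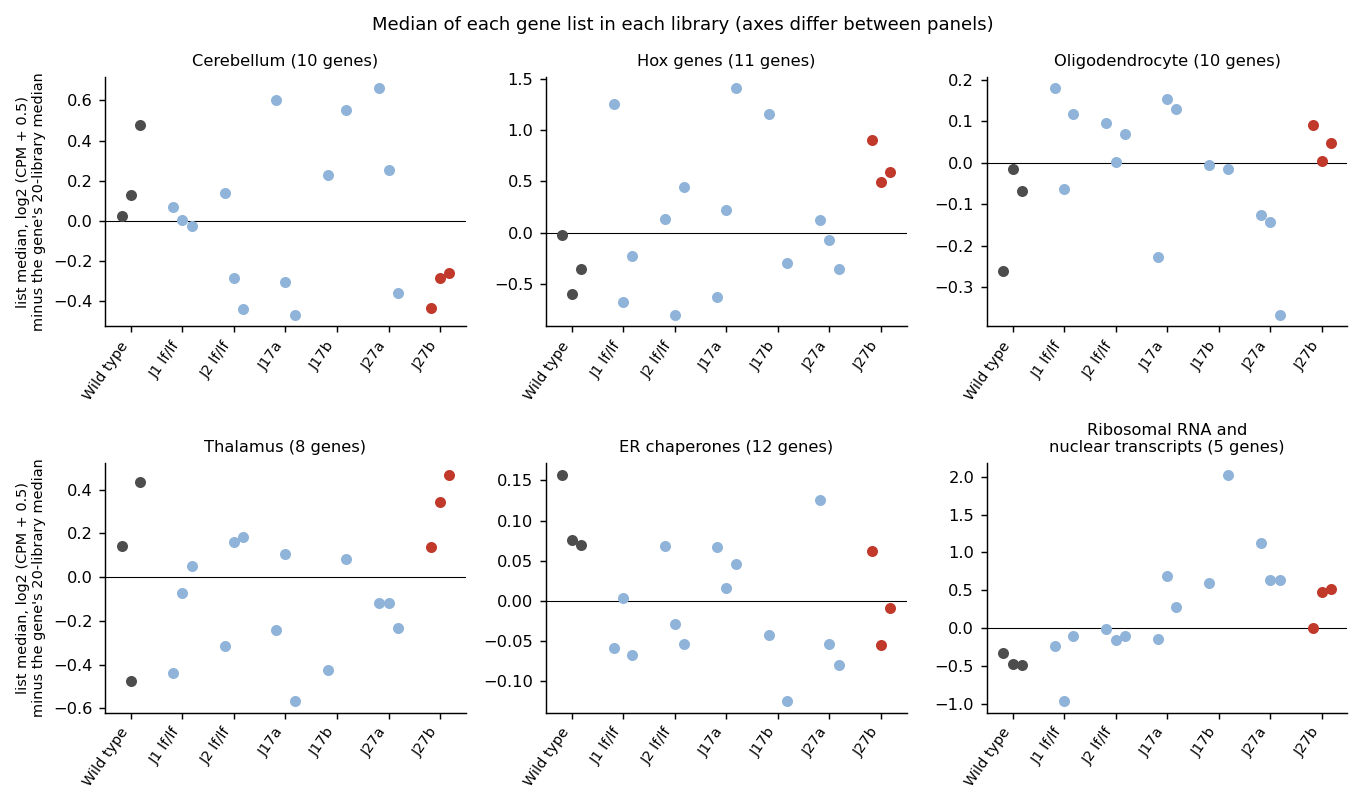
Each panel plots 1 gene list, with the list's median per library on the vertical axis (log2 of CPM + 0.5, minus the gene's median over 20 libraries) and the 7 groups on the horizontal axis. Points are libraries, Wild type in dark grey, J27b in red and other lines in blue. The J27b libraries are low for cerebellar genes, at -0.43 to -0.26, and high for Hox genes, and in both panels other lines hold libraries as far out.

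Against J27a, the line named for the other exon form, 0 genes passed the test either, and the smallest adjusted p was 0.0656. This comparison uses the same J27b libraries as the one with Wild type, so their values are given side by side and no overlap is drawn. At an unadjusted p under 0.05, 458 genes (2.85%) were higher and 472 (2.94%) lower in J27b, 5.79% in all. Mapk9 stood at 299 ± 6.73 CPM (SD, n = 3) in J27a, and the log2 differences of Mapk8, Mapk9 and Mapk10 were -0.12, -0.11 and -0.10, with unadjusted edgeR p of 0.199, 0.68 and 0.133. The smallest p belonged to Gbx2, at 2.08, 2.91 and 2.03 CPM in J27a, a log2 difference of 1.87 (SE 0.30). DESeq2, the fit without a filter on low counts and the fit with the title number each called this gene and no other.

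When only the 6 libraries of J27b and J27a entered the fit, 125 of 15169 genes were called (0.824%), 68 higher and 57 lower. Of the gene lists, thalamus held 3 of 8 called genes, all higher, namely Slc17a6, Tcf7l2 and Synpo2. Oligodendrocytes held 3 of 10, all higher, namely Mag, Cnp and Opalin, and the clock list 3 of 12, all lower, namely Per2, Per3 and Tef. No other list held more than 1, and this spread rests on 3 libraries a group. Slc17a6 stood at 106.4, 109.6 and 96.8 CPM in J27a, and Tcf7l2 at 37.2, 28.5 and 29.8 CPM, all below the J27b libraries. Mag stood at 149.6, 173.3 and 141.4 CPM in J27a. Slc17a6 varied with an SD of 74.4 CPM among the Wild type libraries, against 6.56 CPM among those of J27b. The list medians against J27a were 0.56 for thalamus, 0.26 for oligodendrocytes, -0.64 for cerebellum and 1.27 for Hox genes.

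Against the mean of the other 5 lines, a comparison added after the data were seen, 3 genes (0.0187%) had an edgeR adjusted p under 0.05 and 4.31% an unadjusted p under 0.05. One was Gbx2, with a log2 difference of 1.51 (adjusted p 0.00295). Ide, the insulin-degrading enzyme, had 0.55 (adjusted p 0.00161), with 111.9, 106.0 and 110.2 CPM in J27b and 51.9 to 111.4 CPM in the other lines. Its lowest values were those of J1 lf/lf, at 57.9, 54.2 and 55.1 CPM, and J17b, at 51.9 and 61.7 CPM. J2 lf/lf replicates 2 and 3 stood at 111.4 and 110.4 CPM. Gt(ROSA)26Sor, the transcript of the Rosa26 locus, had 0.96 (adjusted p 0.0100), with 6.51, 5.56 and 5.88 CPM in J27b and 0.0825 to 7.14 CPM in the other lines. In Wild type, Ide stood at 112.9, 109.1 and 105.0 CPM, a log2 fold change of 0.00 for J27b (95% interval -0.19 to 0.20), and Gt(ROSA)26Sor at 5.70, 3.99 and 5.91 CPM. For Gt(ROSA)26Sor the median of the other lines was 5.83 CPM, and the low values were those of J2 lf/lf, at 0.195, 0.0825 and 0.310 CPM. Its log2 difference against J27a was -0.12. In the fit with the title number 0 genes were called, and 0 without J27b replicate 3.

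Genes beside Mapk9 were read separately, because the line is taken to be altered there. Of the 5 nearest tested genes on each side, 0 had an unadjusted p under 0.05. On the side of lower coordinates these were Gfpt2 (0.04), Cnot6 (-0.18), Flt4 (0.17), Olfr1393 (-1.42, at a mean of 0.26 CPM) and Mgat1 (0.16). On the side of higher coordinates they were Rasgef1c (-0.07), Rnf130 (-0.08), Tbc1d9b (0.06), Sqstm1 (0.01), the autophagy receptor p62, and Mgat4b (0.02). Of the 100 nearest on the lower side, over 25.95 Mb, 5 were higher and 6 lower at such a p, 11% of them. Of the 100 on the upper side, over 9.27 Mb, 2 were higher and 6 lower, 8%. Among all 15328 tested genes with a position the share was 6.99%.

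The nearest gene with such a p was Hnrnph1, a splicing factor, at 0.49 Mb (log2 fold change -0.17). On the other side the nearest were the interferon-induced GTPases Ifi47 (-0.82) and Tgtp1 (-0.89), at -0.75 and -0.85 Mb. Gabra6, Fat2 and Glra1 lie on the same chromosome at -7.5, 5.36 and 5.63 Mb. Promoter windows of 300 bases from RefSeq were searched on both strands for the AP-1 motif TGANTCA. It was found in a window of 1 of 10 matched genes named as higher, Igfbp2, and of 1 of 16 named as lower, Kdm3a. Of all 32851 promoter windows 7.81% held it. That share is per window, whereas a gene can have several windows, so the measures are not alike.

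**Figure D5:**
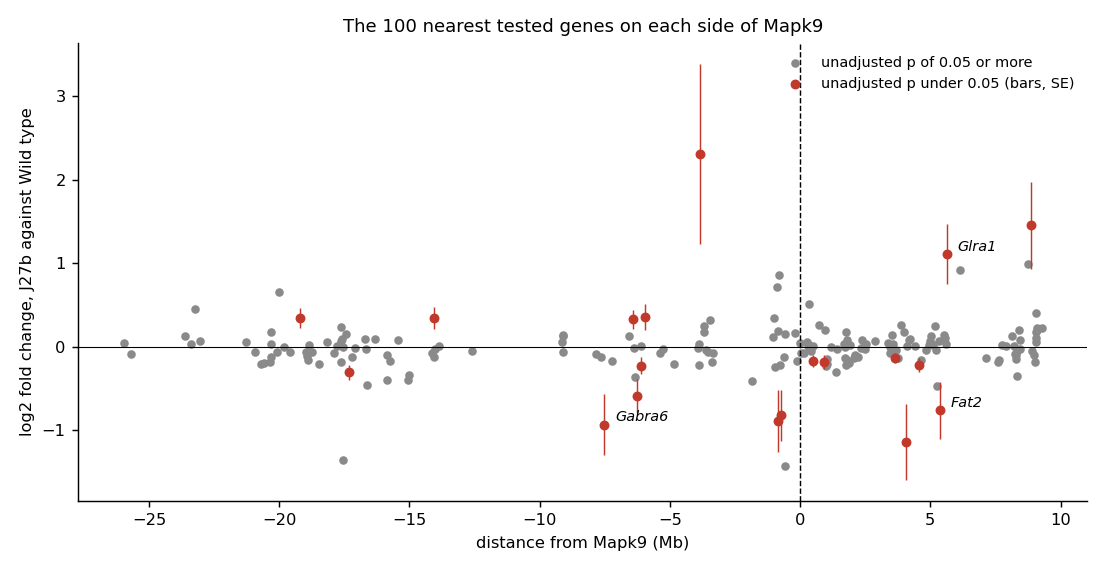
The horizontal axis is the distance from Mapk9 in Mb and the vertical axis the log2 fold change of J27b against Wild type, for the 100 nearest tested genes on each side. Red points have an unadjusted p under 0.05 and carry their SE as bars, grey points do not. Red points lie on both sides, 11 below and 8 above Mapk9 in coordinates, the nearest at 0.49 Mb.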

How the data were processed

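Poly(A)-enriched brain RNA was sequenced as paired-end reads of 150 bp, per the labels' protocols. The deposited expected counts are RSEM estimates per gene. Cutadapt and build mm10 are also named, per the submitters' processing notes. RSEM divides reads that match several genes, and 4.11% of the values were not whole. The deposited TPM values are the authors' length-scaled form of the same estimates. The sources used here give no versions, annotation or strand use, which leaves overlapping, antisense and near-identical genes uncertain.

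Of 23845 genes in the tables, 4425 had no count in any library. Counts were rounded and fitted with edgeR 4.0.16 in R 4.3.3 (TMM factors 0.975 to 1.03, filterByExpr, robust quasi-likelihood), with all 20 libraries in 1 fit of 7 group means. The tests were two-sided, Benjamini-Hochberg adjustment was within a comparison at 0.05, and 16063 genes were tested. The common dispersion was 0.0144, and the scripts were checked on simulated data. Each library's values are given as TMM-scaled CPM, and changes are log2 fold changes. Named genes are the 12 each way with the smallest p and the 5 each way with the largest fold, at a mean logCPM of at least 1, with groups that do not overlap and without predicted genes. To these were added the JNK genes, genes called in an alternative, the nearest genes of Mapk9 and list members. The 39 gene lists and all members were chosen with earlier results of these data known, and no set test was run. Alternatives were DESeq2 1.42.0, limma 3.58.1 on TPM, other size factors, no filter, fewer libraries, a replicate block, and a term for title numbers above 10, which only J17a, with numbers on both sides, makes separable. Libraries of the same replicate number did not deviate together (correlations of -0.0055, 0.058 and 0.036), so they were not paired.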

Additional observations from a re-analysis of the deposited data

How the results depend on the processing

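Against Wild type, 0 genes were called by edgeR with other size factors, no filter, Rn45s left out, only the 6 libraries, a title number term, or limma on TPM. DESeq2 called 4, and leaving out each library in turn gave 0 to 2. With the replicate number as a block, edgeR again called 0, and the log2 fold change of Mapk9 was -0.21. Over all settings Mapk9 ranged from -0.30 to -0.11. The list medians of cerebellar, Hox and oligodendrocyte genes each kept their sign in 14 of 15 settings. Those of ER chaperones and clock genes kept it in all 15. Against J27a, 1 gene was called without a filter, 1 with the title number, 1 by DESeq2 and 125 with only the 6 libraries, and 0 when any library was left out. Against the other 5 lines, 0 were called with the title number, 6 by DESeq2, 4 without a filter, and 0 to 4 with a library left out. Gabra6 (0.11) and Ltbp2 (0.27) reversed in the fit with the title number, and Vamp1, Cadps2, Trabd2b and Lingo4 came near 0 in it; the cause was not tested. With 3 libraries a group, the median SE of a log2 fold change was 0.11 at a logCPM of at least 1. The list medians of oligodendrocyte genes (0.15) and ER chaperones (-0.13) are little larger than that SE. Steps of that size are therefore below what 1 gene with such an SE can show.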

Other observations

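Gene lists not described above held few genes with an unadjusted p under 0.05, beside 3.34% higher and 3.59% lower of all tested genes. The 10 genes of forebrain glutamatergic neurons had a median log2 fold change of -0.05, and 0 had such a p, with Camk2a, the calcium-dependent kinase of excitatory synapses, at 2473, 2496 and 1512 CPM in Wild type and 2168, 2356 and 2156 CPM in J27b. The 8 genes of monoamine neurons had a median of 0.13 and 0 with such a p. Th, tyrosine hydroxylase of dopamine and noradrenaline cells, stood at 9.35, 14.3 and 10.2 CPM against 12.1, 9.48 and 18.2 CPM. Of 8 endothelial and mural genes 1 was higher, Vtn, vitronectin of pericytes, at 59.0, 55.8 and 54.0 CPM against 64.6, 63.7 and 62.8 CPM (0.18). Of 6 meningeal genes 1 was lower, Dcn, the proteoglycan decorin (-0.41).

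Of 12 glutamate and GABA receptor subunits 1 was higher, Grin2b (0.28), and 1 lower, Gria2 (-0.18). The 4 tested genes of red blood cells had a median of -0.06, and Hbb-bs, adult beta globin, stood at 181.8, 215.5 and 290.0 CPM against 263.4, 205.1 and 196.9 CPM. Y-linked genes were present in all 6 libraries, with Ddx3y at 71.8, 70.4 and 94.0 CPM in Wild type and 77.1, 74.8 and 73.2 CPM in J27b. Xist, of the same sex-linked list, had 57.87 estimated counts in total over the 20 libraries and was not tested.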
